A study of Caenorhabditis elegans with 4 samples.

Results

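The right piRNA domain of chromosome IV is the stretch of 3.7 Mb that ends at 17.2 Mb, near the right end of that chromosome in Caenorhabditis elegans. Its members here are the called GEI-11 binding regions whose midpoint lies in that span, in coordinates of the WS220 genome counted from 1. There were 609 such regions among the 6192 of the list called on both replicates together, which is 9.84% of that list and 32.8% of the 1856 regions of chromosome IV. The span makes up 3.70% of the genome and 21.2% of chromosome IV, each measured to the last called position. In the same span lay 451 of the 4368 regions of the replicate 1 list and 215 of the 2617 of the replicate 2 list. The members were chosen by position alone, and the name of the span rests on that position: no gene or piRNA locus is assigned to a region here, because the gene table at hand is of another genome build.

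The regions come from chromatin immunoprecipitation followed by sequencing (ChIP-seq) of whole hermaphrodite worms collected as L3 larvae, the stage before the last larval one, after growth at 20 degrees Celsius and fixation in 2% formaldehyde. The ChIP group held 2 libraries made with goat antibodies against GFP, and the input group held 2 libraries of DNA from lysate set aside before precipitation. All 4 samples came from strain OP179, which carries unc-119(ed3) III and the transgene wgIs179, a rescuing unc-119(+) with gei-11 fused to TY1, EGFP and 3xFLAG tags, introduced by particle bombardment. The fusion protein is precipitated, not the endogenous GEI-11, and a single transgenic strain was used. ChIP replicates 1 and 2 had 3773496 and 3560372 reads of 36 bases, against 8331974 and 7222788 in the input libraries. The sample sheet gives 2500000 and 2800000 uniquely mapped ChIP reads, which look rounded, so replicate 1 had more called regions from fewer mapped reads. The labels do not say that replicates came from separate cultures, so differences between the lists may be technical only. Whole worms contain germline and soma, and weaker binding cannot be told apart from binding in fewer cells. The lists hold no value that checks the tagged gene itself.

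The protein GEI-11 has the second name SNPC-4 and is the DNA-binding subunit of the small nuclear RNA activating protein complex, which starts transcription of small nuclear RNA genes. In the worm germline it is also needed for transcription of piRNAs, short RNAs that guide a Piwi protein to foreign or unwanted transcripts. Most worm piRNAs are made from very small transcription units, each with its own upstream motif, which crowd into a pair of broad domains on chromosome IV. The right domain is the larger of these.

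Called regions were crowded in the right domain. The combined list had 165 regions per Mb there, with a 95% exact Poisson interval of 152 to 178. The left piRNA domain, taken as 4.5 to 7 Mb, had 103 per Mb (90.6 to 116), the chromosome centre between the domains had 94.2 (86.8 to 101.9), the left arm had 77.3 (69.4 to 85.9), and the other 5 chromosomes together had 52.5 (50.9 to 54.1). Density in the right domain was 3.14 times that of the other chromosomes, with a 95% exact interval of 2.88 to 3.42. In single replicate lists the ratio was 3.31 (2.99 to 3.65) in replicate 1, with 122 against 36.9 regions per Mb, and 2.58 (2.23 to 2.97) in replicate 2, with 58.1 against 22.5. Against the left piRNA domain, replicate 1 had 122 (111 to 134) and 74.0 (63.7 to 85.5) per Mb, while replicate 2 had 58.1 (50.6 to 66.4) and 44.8 (36.9 to 53.9), where the intervals overlap. Combined regions overlapped by both replicate lists were at 37.6 per Mb (31.6 to 44.4) in the right domain. The left domain had 38.4 (31.1 to 46.9), the centre 34.3 (29.95 to 39.1) and the left arm 27.1 (22.5 to 32.4). The intervals of these zones all overlap that of the right domain. The other chromosomes had 19.3 (18.3 to 20.2), and the right domain was 1.95 times (1.63 to 2.32) as dense. Counting error is all that these intervals hold, and they take each region as an independent event although neighbours are linked.

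**Figure D1:**
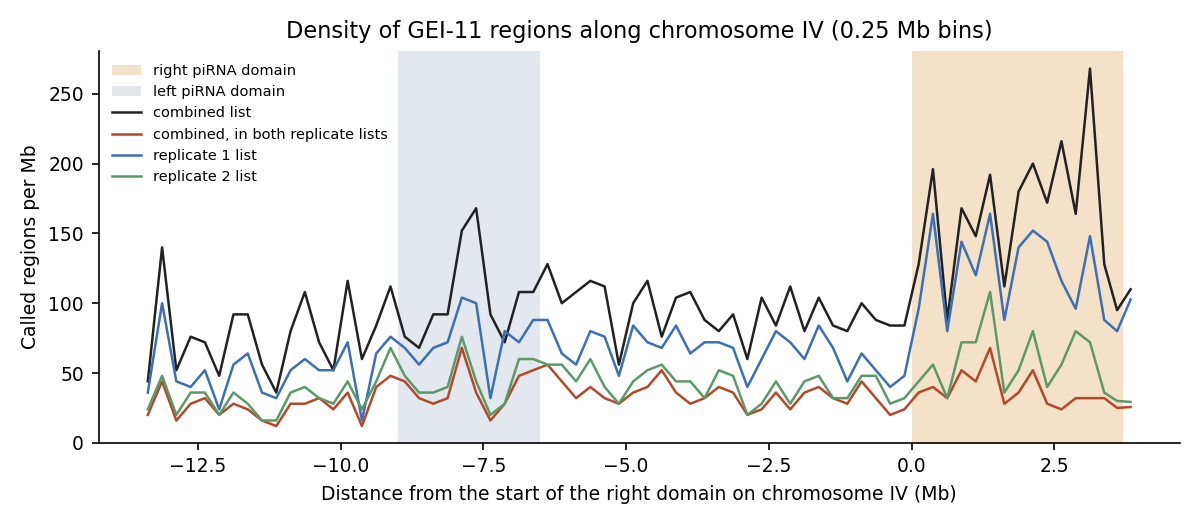
Called GEI-11 regions per Mb (y axis) in bins of 0.25 Mb along chromosome IV, by distance in Mb from the start of the right domain (x axis); lines show the combined list, the combined regions overlapped by both replicate lists, and each replicate list, and shading marks the piRNA domains. The combined and replicate 1 lines are higher inside the right domain, at 165 and 122 per Mb over its whole length, while the line of regions found in both replicates is at 37.6 per Mb there and 38.4 per Mb in the left domain.

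Stretches near the right ends of the other chromosomes were less dense. Windows of the same 3.7 Mb length, ending 0.3 Mb before the last called region of each other chromosome, held between 28.4 regions per Mb on chromosome V and 78.4 on chromosome X in the combined list. Chromosomes I, II and III had 39.5, 71.9 and 74.1 per Mb in these windows. All 5 windows lay below the 165 per Mb of the right domain. The order held in each replicate list, where the 5 windows had 21.4 to 56.5 regions per Mb against 122 in the domain in replicate 1, and 11.9 to 41.9 against 58.1 in replicate 2.

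The edges of the crowded stretch were checked against the next regions outside. The first 0.5 Mb inside the span had 162 combined regions per Mb (95% exact Poisson interval 129 to 201), against 84 (60.5 to 114) in the 0.5 Mb before it. The last 0.5 Mb inside had 118 (89.8 to 152), against 110 (74.2 to 157) from 17.2 Mb to the last called position of the chromosome. The first 0.1 Mb inside the left edge, with 80 per Mb, was no denser than the flank, and the next 2 bins of 100 kb had 140 and 210. At the right edge the intervals overlap widely. In single lists, replicate 1 had 84 per Mb (60.5 to 114) inside that edge and 103 (68.2 to 148) outside it. Replicate 2 had 32 (18.3 to 52.0) inside and 29.3 (12.7 to 57.8) outside. Over the 0.5 Mb at the left edge, replicate 1 had 130 against 44 per Mb. There replicate 2 had 50 against 30 per Mb, with overlapping intervals of 32.4 to 73.8 and 16.8 to 49.5. The region just inside the left edge, from 13502806 to 13503273, had a −log10 q of 8.92, and the one just outside, from 13453368 to 13453816, had 5.52. At the right edge the last member, from 17193120 to 17193142, was 23 bp wide with 3.52, and the next region, from 17202164 to 17202210, was 47 bp wide with 3.47.

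Strength here means −log10 of the q-value from the authors' peak caller, so that a larger number is a stronger call. It serves to rank the regions of 1 list, and it also grows with depth. The 15 strongest combined members ran from 30.9 to 144 and from place 22 to place 191 in the whole combined list. All 15 were overlapped by regions of both replicate lists, as were all 375 regions of the whole combined list at 20 or more. The 15 were 331 to 2078 bp wide, with a median of 647 bp, and 10 of the 15 lay below 15.35 Mb, the middle of the span.

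The strongest member lay from 14326597 to 14327588 and its −log10 q was 144 when the replicates were called together, 91.0 in the list of replicate 1 and 94.2 in that of replicate 2. The same place was called with similar bounds in the replicates, 979 bp wide in replicate 1 and 807 bp in replicate 2 against 992 bp in the combined list. It was number 30 of the replicate 1 list and number 26 of the replicate 2 list. The next combined region on its right lay 28519 bp away.

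Several strong members lay further left. The member from 14032586 to 14034663 reached a −log10 q of 91.1 when called on both replicates, against 41.5 for replicate 1 alone and 51.0 for replicate 2 alone. It was the widest of all 609, at 2078 bp, and nearly the whole width was called in each replicate, 1970 bp in replicate 1 and 2036 bp in replicate 2. The member from 14013662 to 14014248, on its left, had 81.7, 48.3 and 50.8 in the same order of lists. The member from 13892897 to 13893599 had 57.4, 34.7 and 26.4. Its neighbour from 13887145 to 13888075 had 37.3, 20.5 and 18.0. All 4 places were called as a single region in each list. Of the first 2, the wider was the stronger in the combined and replicate 2 lists and the weaker in replicate 1.

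The other strong members of the left part of the span lay between 14445172 and 14985507. The member from 14445172 to 14445764 had a −log10 q of 56.6 with both replicates called together, 29.3 with replicate 1 and 28.2 with replicate 2. The member from 14464037 to 14464414 had 30.9, 18.4 and 15.3 in the same order, and that from 14525483 to 14525985 had 41.1, 16.9997 and 21.7. The last of these was followed by 35060 bp with no combined region. A broader member from 14611973 to 14613215, 1243 bp wide, had 35.6, 19.1 and 14.97, and that from 14984861 to 14985507 had 32.7, 17.1 and 11.4. Replicate 1 gave the higher value at 4 of these 5 places and replicate 2 at 1, that at 14525483.

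A pair of strong members of the right part stood side by side. The member from 15471345 to 15471756 had a −log10 q of 30.9, 12.7 and 17.9 in the combined, replicate 1 and replicate 2 lists. It was 637 bp from the next, from 15472394 to 15472724, which had 37.1, 22.4 and 16.0006 and was the narrowest of the 15 at 331 bp. Further right, the member from 16180675 to 16181619 had 42.1, 22.7 and 20.1, and that from 16592793 to 16593317 had 33.4, 15.96 and 16.03. Of the 15 places, the replicates differed most at the member from 16491259 to 16492782. There the combined list had 37.1 over 1524 bp and replicate 1 had 21.8 over 1488 bp. Replicate 2 had 2 separate regions, the stronger of which reached 6.60 over 461 bp and the other 6.23 over 577 bp.

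**Figure D2:**
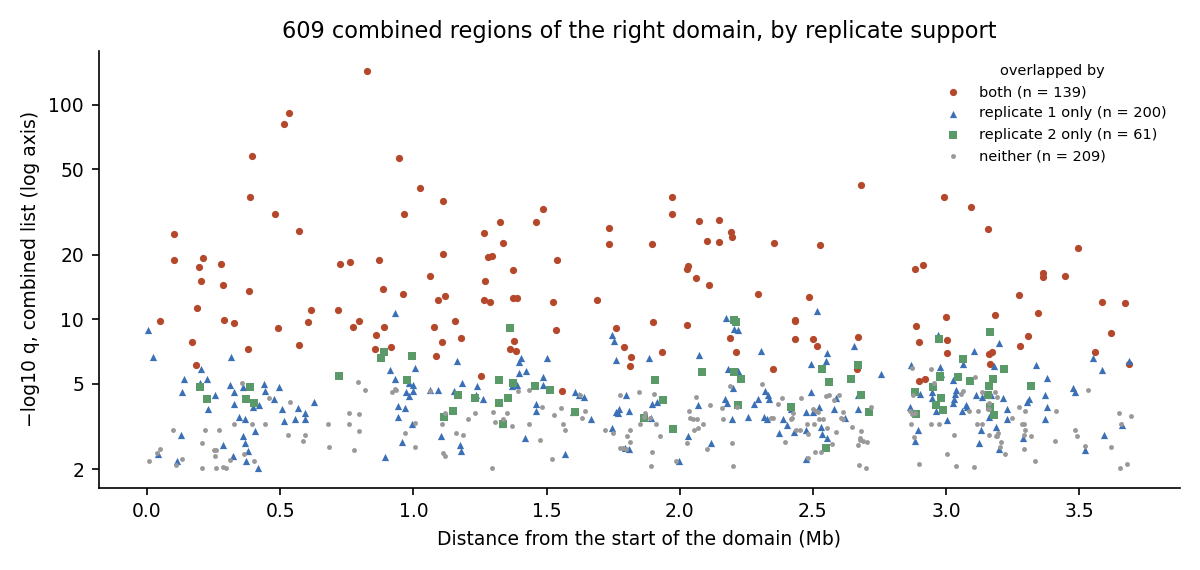
Each of the 609 combined regions of the right domain, by distance in Mb from the start of the domain (x axis) and −log10 q in the combined list (y axis, log scale), with colour and marker for the replicate lists that overlap it. Regions overlapped by both replicate lists fill the upper part, up to 144, while those overlapped by neither stay at 5.94 or below.

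Strong members were common per Mb but not as a share of the domain's regions. Of the 609, 36 (5.91%) had a −log10 q of 20 or more, against 6.06% of the whole combined list and 6.11% on the other chromosomes. Per Mb these were 9.73 (95% exact Poisson interval 6.81 to 13.47) in the right domain, 8.40 (5.20 to 12.8) in the left domain, 5.08 (3.49 to 7.13) in the centre and 3.21 (2.83 to 3.62) on the other chromosomes. The window of equal length near the right end of chromosome II held 38 such regions (14.3% of its regions), against the 36 of the domain. The windows of chromosomes I, III, V and X held 9, 14, 3 and 26. Among the 100 strongest combined regions 5 were members, and among the 1000 strongest 82. At this cut the right domain was 3.03 times (95% exact interval 2.08 to 4.31) as dense as the other chromosomes, and its interval overlapped that of the left domain. The ratio to the other chromosomes depended on the cut, at 2.47 (1.95 to 3.09) for a −log10 q of 10 or more and 1.43 (0.452 to 3.49) for 50 or more.

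The regions that set the right domain apart in number were narrow ones. The median width of the members was 138 bp (95% interval of the median 121 to 157), with an interquartile range of 50 to 262 bp. It was 293 bp in the left domain, 312 bp in the centre, 310.5 bp in the left arm and 369 bp on the other chromosomes. Members under 50 bp numbered 152 (24.96%), against 5.51% of the whole combined list and 2.38% on the other chromosomes, and 6 members were 1 bp wide. Regions under 200 bp numbered 402, or 109 per Mb (98.3 to 120), which is 20.6 times (95% exact interval 18.0 to 23.7) the 5.26 per Mb of the other chromosomes. Regions of 200 bp or more numbered 207, or 55.9 per Mb (48.6 to 64.1), which is 1.19 times (1.03 to 1.36) the 47.2 per Mb of the other chromosomes. That ratio was higher in other zones of chromosome IV, at 1.440 (1.228 to 1.680) in the left domain and 1.247 (1.097 to 1.413) in the left arm. In the centre it was 1.509 (1.367 to 1.662), and only there did the interval not overlap that of the right domain. Members of 400 bp or more were at 19.7 per Mb (15.5 to 24.8), against 22.5 (21.5 to 23.5) on the other chromosomes.

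The same split by width appeared in each replicate list. In replicate 1, regions under 200 bp were at 83.0 per Mb in the domain against 4.15 on the other chromosomes, a ratio of 20.0 (95% exact interval 17.1 to 23.4), and wider ones at 38.9 against 32.7, a ratio of 1.19 (0.999 to 1.41). In replicate 2, regions under 200 bp were rarer everywhere, at 22.4 per Mb in the domain against 0.496 on the other chromosomes, a ratio of 45.2 (30.7 to 67.4), and wider ones were at 35.7 against 22.03, a ratio of 1.62 (1.35 to 1.93). The left domain shared the pattern to a smaller degree, with ratios of 6.61 (5.19 to 8.34) for narrow and 1.44 (1.23 to 1.68) for wider regions in the combined list. Zones of chromosome IV outside the piRNA domains shared it too. For narrow combined regions the ratio was 4.354 (3.590 to 5.256) in the centre and 3.503 (2.736 to 4.440) in the left arm. The windows near the right ends of the other chromosomes had 7.51 narrow regions per Mb together, against the 109 of the domain.

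**Figure D3:**
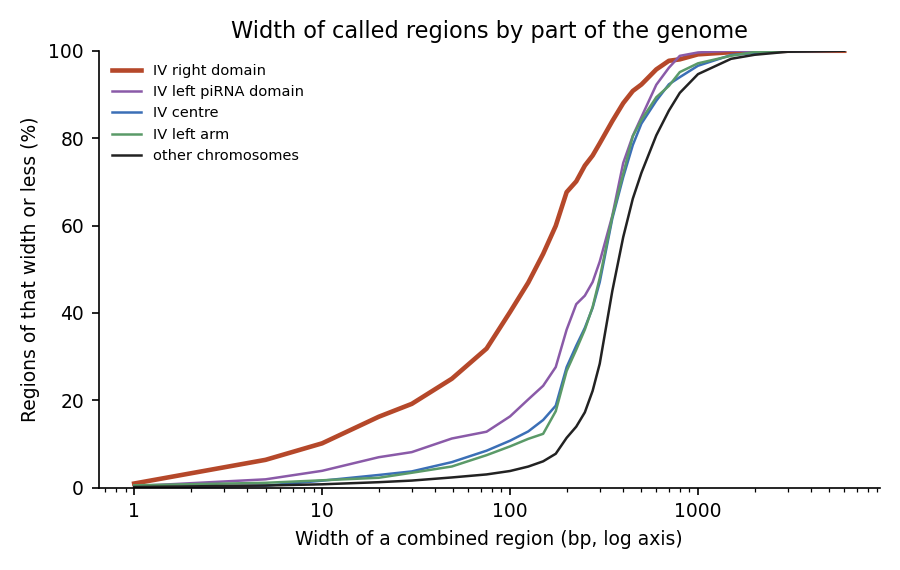
Cumulative share of combined regions in percent (y axis) by width in bp (x axis, log scale), for the right domain, the other zones of chromosome IV and the other chromosomes. The right domain curve lies to the left of all others, with 66.0% of its regions under 200 bp against 33.9% in the left domain and 10.0% on the other chromosomes.

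Covered length set the domain apart far less than the number of regions did. Combined members covered 117 kb, or 3.17% of the span. The left domain was covered to 3.11%, the centre to 3.38%, the left arm to 2.72% and the other chromosomes to 2.41%. In replicate 1 the domain was covered to 2.25% against 2.24% in the centre and 1.54% on the other chromosomes, and in replicate 2 to 1.58% against 1.72% and 1.10%. In all 3 lists the domain was thus above the other chromosomes, by 1.32 to 1.46 times, and close to or below the centre of its own chromosome. The lists were called separately, so covered length moves with how much was called.

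Members were strong for their width. Members under 50 bp had a median −log10 q of 3.44, against 2.31 for regions of that width on the rest of chromosome IV and 2.28 on the other chromosomes. From 100 to 199 bp the medians were 4.09 against 2.62 and 2.53, and from 200 to 399 bp they were 7.11 against 4.12 and 3.60. Read the other way, members were narrow for their strength. Members with a −log10 q of 4 to 6 had a median width of 125 bp (95% interval 104 to 143), against 327.5 bp (316 to 347) on the rest of chromosome IV and 384.5 bp (370 to 399) on the other chromosomes. From 6 to 10 the widths were 282 bp (241 to 299) against 411 bp (380 to 435) and 425 bp (404 to 446). From 10 to 20 they were 414 bp (380 to 483) against 478 bp (426 to 530) and 540 bp (507 to 568), where the first pair of intervals overlapped. The median strength over all members, 4.27, lay near the 4.14 of the other chromosomes.

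A smaller share of members than of regions elsewhere was found in both replicates. Both replicate lists overlapped 139 of the 609 members, or 22.8% (95% exact Clopper-Pearson interval 19.5 to 26.4%), against 35.2% of the whole combined list. The share was 37.4% (31.4 to 43.6%) in the left domain, 36.4% (32.6 to 40.4%) in the centre and 36.7% (35.3 to 38.2%) on the other chromosomes. A further 200 members (32.8%) were overlapped by replicate 1 only, against 28.1% of the whole list, and 61 (10.0%) by replicate 2 only, against 6.09%. The remaining 209 (34.3%) were overlapped by neither, against 30.7% found in neither over the whole list. Members found in both had a median width of 394 bp and a median −log10 q of 12.3. Those in replicate 1 only had 124 bp and 4.23, those in replicate 2 only 170 bp and 4.84, and those in neither 58 bp and 3.24. The 4 classes thus followed width and strength together, and none of the 152 members under 50 bp was found in both, which leaves an exact upper limit of 2.40%. The same held for all 341 regions under 50 bp of the whole combined list, so it does not set the domain apart.

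The replicate lists also shared less with each other in the domain. Of the 215 replicate 2 regions, 134 overlapped a replicate 1 region, or 62.3% (55.5 to 68.8%), against 84.5% of the whole replicate 2 list and 86.9% on the other chromosomes. Of the 451 replicate 1 regions, 134 overlapped a replicate 2 region, or 29.7% (25.5 to 34.2%), against 51.1% of the whole replicate 1 list and 53.7% on the other chromosomes. Split by width, the difference was not seen among wider replicate 2 regions. Replicate 2 regions of 200 bp or more were overlapped by replicate 1 in 86.4% (79.3 to 91.7%) of 132 cases in the domain, against 87.2% (84.0 to 89.99%) on the rest of chromosome IV and 87.8% (86.2 to 89.3%) on the other chromosomes. Those under 200 bp were overlapped in 20 of 83 cases, or 24.1% (15.4 to 34.7%), in the domain, against 46.3% (30.7 to 62.6%) of 41 on the other chromosomes, and these intervals overlap. Narrow regions were 38.6% of the replicate 2 list in the domain and 2.203% on the other chromosomes. Replicate 1 regions of 200 bp or more were overlapped by replicate 2 in 75.7% (67.9 to 82.4%) of cases in the domain, against 66.9% (63.1 to 70.5%) on the rest of chromosome IV, whose interval overlaps, and 58.7% (56.9 to 60.6%) on the other chromosomes. Those under 200 bp were overlapped in 8.14% (5.34 to 11.8%) of 307 cases in the domain, against 10.1% (6.46 to 14.9%) on the rest of chromosome IV and 14.3% (10.8 to 18.4%) on the other chromosomes.

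The order of support between the domain and elsewhere depended on whether strength or width was held alike. At a −log10 q of 4 to 6, 3.82% (1.42 to 8.13%) of 157 members were found in both replicates, against 26.9% (21.0 to 33.4%) on the rest of chromosome IV and 30.5% (27.2 to 33.9%) on the other chromosomes. At 6 to 10 the shares were 56.7% (45.8 to 67.1%) against 83.9% (78.1 to 88.7%) and 80.9% (77.8 to 83.8%). At 20 or more all 36 members were found in both, as were all 375 such regions of the whole combined list. At like width, from 200 bp up, the order turned round. From 200 to 399 bp, 52.2% (43.4 to 60.9%) of 134 members were found in both, against 31.8% (27.9 to 35.8%) on the rest of chromosome IV and 28.3% (26.3 to 30.3%) on the other chromosomes. At 400 bp or more the shares were 87.7% (77.9 to 94.2%) against 76.9% (72.1 to 81.3%) and 54.3% (52.0 to 56.6%), where the interval of the domain overlapped that of the rest of chromosome IV. With both held alike, at 200 to 399 bp and a −log10 q of 6 to 10, 40 of 60 members (66.7%, 53.3 to 78.3%) were found in both, against 87.0% (78.3 to 93.1%) on the rest of chromosome IV and 84.8% (80.3 to 88.5%) on the other chromosomes. In the other classes of width and strength the intervals overlapped. At 200 to 399 bp and 4 to 6 the share was 16.7% (4.74 to 37.4%) of 24 members, against 29.5% (22.3 to 37.5%) and 34.6% (29.9 to 39.5%). At 400 bp or more and 6 to 10 it was 66.7% (34.9 to 90.1%) of 12 members, against 81.3% (72.6 to 88.2%) and 77.8% (73.4 to 81.8%). A narrow region has less room to overlap, and the part of this in the shares was not tested.

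**Figure D4:**
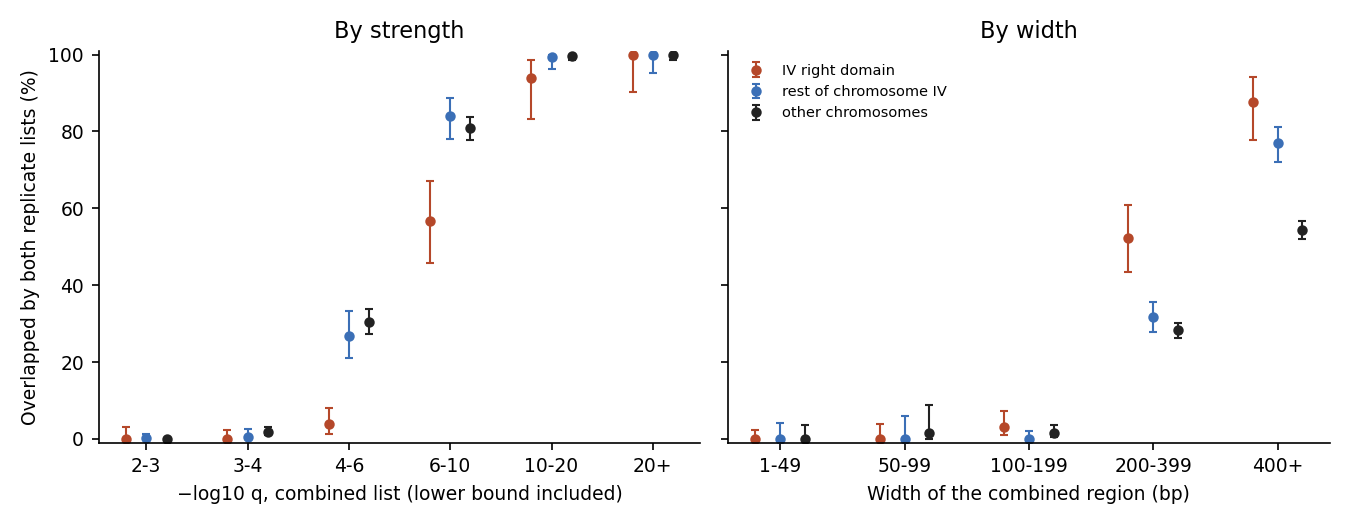
Share of combined regions in percent that both replicate lists overlapped (y axis), by −log10 q (left) and by width in bp (right), for the right domain, the rest of chromosome IV and the other chromosomes; points are shares and bars exact 95% Clopper-Pearson intervals. At a −log10 q of 6 to 10 the right domain is lowest at 56.7%, whereas at widths of 200 to 399 bp it is highest at 52.2%.

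Some of the unshared regions lay close to a region of the other list. In the domain, 68.4% of replicate 2 regions had a replicate 1 region within 500 bp and 76.7% within 1000 bp, beside the 62.3% that overlapped one. On the other chromosomes the same distances gave 87.7% and 88.5%. Of the domain's replicate 1 regions, 34.8% lay within 500 bp of a replicate 2 region and 40.4% within 1000 bp, against 55.6% and 57.8% on the other chromosomes. Regions were also closer together in the domain, and the part of that spacing in these shares was not tested.

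Regions that overlapped between the replicate lists were compared pair by pair. Of the domain's replicate 1 regions, 133 were matched with a replicate 2 region as each other's largest overlap. Their midpoints lay a median of 24 bp apart, and their median widths were 325 bp in replicate 1 and 323 bp in replicate 2. Across these 133 pairs Spearman's rho was 0.77 for −log10 q and 0.76 for width, against 0.74 and 0.81 across 1610 pairs on the other chromosomes. These are correlations across regions that share a genome and an input signal, and they are given as a description. Only overlapping regions could be paired, so close midpoints follow in part from the pairing itself. By the same rule the midpoints of pairs on the other chromosomes lay a median of 29 bp apart.

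Some replicate regions of the domain were missing from the combined list. No combined region overlapped 108 of the 451 replicate 1 regions (23.9%), against 8.45% of the whole replicate 1 list and 5.98% on the other chromosomes. The same held for 13 of the 215 replicate 2 regions (6.05%), against 0.726% of the whole replicate 2 list and 0.107% on the other chromosomes. The 108 were narrow, with a median of 43 bp against 181 bp for the other replicate 1 regions of the domain, and 27 of them lay within 500 bp of a combined region. The strongest of them, from 14143930 to 14144118, had a −log10 q of 6.10 in replicate 1 and lay 15421 bp from the nearest combined region.

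Members were close together, and their gaps were about as uneven as those elsewhere. The median gap between neighbouring combined members was 3072.5 bp (95% interval 2624 to 3425). The middle 50% of gaps lay between 1151.5 and 7148.75 bp, and the mean over all gaps was 5876 bp. The median was thus 0.523 times the mean, as in the left domain at 0.523. It was 0.553 times in the centre, 0.497 in the left arm and 0.516 on the other chromosomes. The median gap was 4853.5 bp in the left domain, 5632 bp in the centre and 9583 bp on the other chromosomes. Of 608 gaps, 136 (22.4%, 19.1 to 25.9%) were 1000 bp or less, against 17.2% (12.8 to 22.4%) in the left domain and 10.4% (9.50 to 11.3%) on the other chromosomes. No gap between members was under 202 bp, and none in any list was under 200 bp. Joining regions 1000 bp or less apart left 473 runs, of which 97 held more than 1 region, and these held 38.3% of the members. Such runs held 28.4% of regions in the left domain, 26.1% in the centre and 19.0% on the other chromosomes. In replicate 2 the domain's share, 20.0%, lay above the 10.96% of the other chromosomes and below the 23.5% of the left arm.

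The runs with 5 or more pieces were picked out after their values were seen. The run with the most pieces spanned 16660758 to 16665113 and held 7 regions of 67 to 368 bp, with a highest −log10 q of 8.67. Replicate 1 had 2 regions there and replicate 2 had 4. A run of 6 regions of 165 to 560 bp spanned 16167507 to 16171533 and reached 8.26, with 4 regions in replicate 1 and 3 in replicate 2. Runs of 5 regions lay at 13824498 to 13826795 and at 14608888 to 14614375. The second of these holds the broad member at 14611973 described above, with a −log10 q of 35.6, flanked by a piece of 808 bp with 20.1 and by 3 pieces of 11 to 195 bp. The other 3 runs had no piece above 9.63.

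Along the span, 100 kb bins held 5 to 37 combined regions, with a median of 16, and no bin of the 37 was empty. The bin with the most, from 16.6 to 16.7 Mb, held 37 combined regions, with 19 in replicate 1 and 11 in replicate 2, and 5 found in both. The bin from 16 to 16.1 Mb held 30, with 17 in replicate 1 and 7 in replicate 2, and 3 found in both. The bin from 13.8 to 13.9 Mb followed with 25, the bin from 14.8 to 14.9 Mb with 24, and 3 bins tied at 23. The bin at 14.8 Mb had the most regions of replicate 2, 16, and the most found in both, 8. The bin with the most combined regions was thus not the one with the most shared regions. Across the 37 bins the counts of the replicate lists had a Spearman's rho of 0.68, given as a description of bins that share a genome and an input signal.

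The emptiest bins of the combined list lay from 14.1 to 14.2 Mb and from 16.2 to 16.3 Mb, with 5 combined regions each. The first held 7 regions of replicate 1 and 2 of replicate 2, and the second held 2 of each. The second held the widest gap of the domain, which ran on into the next bin, 106650 bp from 16256784 to 16363433, with 2 regions of replicate 1 and none of replicate 2 inside. The gap before it in the list, from 16219401 to 16256648, spanned 37248 bp, with 1 region of each replicate inside. A gap of 52031 bp lay from 14128509 to 14180539, with 3 regions of replicate 1 and none of replicate 2 inside. The gap of 35828 bp from 14182737 to 14218564 held no region of either replicate. A gap of 48714 bp near the left edge ran from 13549670 to 13598383, with 1 replicate 1 region inside.

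**Figure D5:**
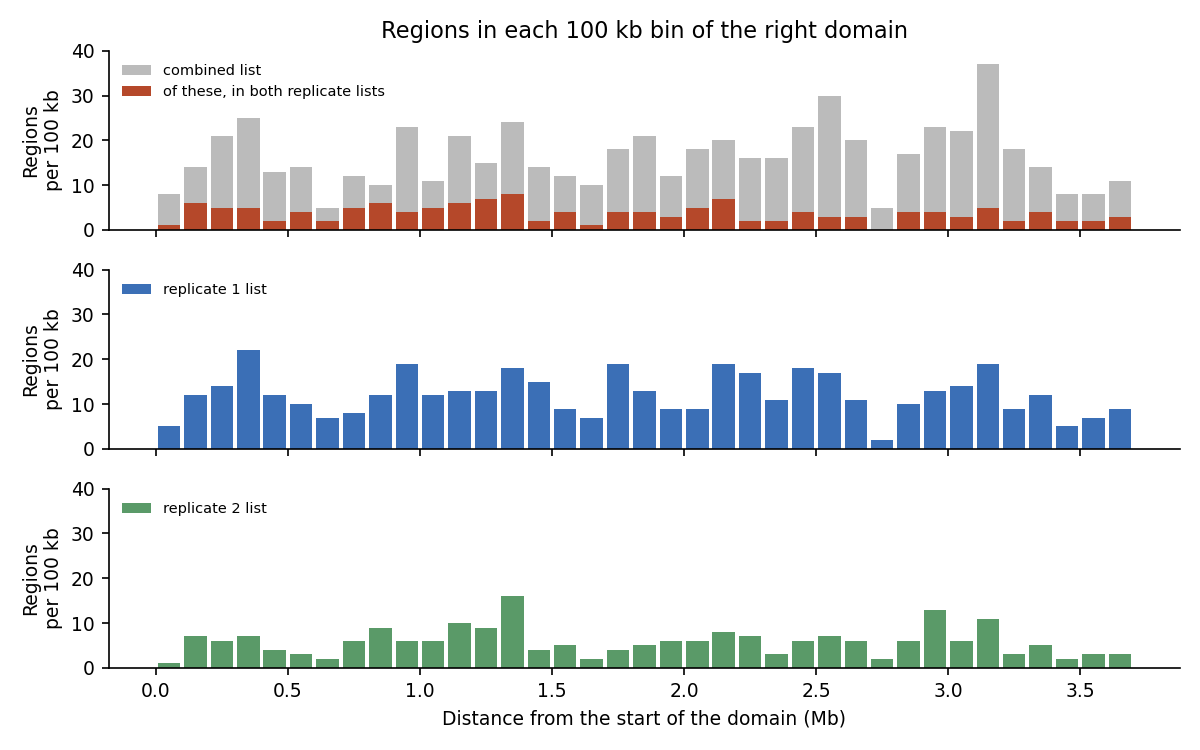
Number of called regions (y axis) in each 100 kb bin of the right domain, by distance in Mb from its start (x axis), in the combined list (top, with those overlapped by both replicate lists in red), the replicate 1 list (middle) and the replicate 2 list (bottom). Combined bins run from 5 to 37, and the tallest, 3.1 Mb from the start, has 5 regions found in both, fewer than the 8 of the bin 1.3 Mb from the start.

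The parts of the span on either side of its middle, 15.35 Mb, differed in what they held. The right part had 178 combined regions per Mb (95% exact Poisson interval 160 to 198.7) and the left part 151 (134 to 170), with overlapping intervals. In single lists the right part was not denser, with 118 per Mb against 126 in replicate 1 and 57.3 against 58.9 in replicate 2. Regions found in both replicates made up 18.2% (14.2 to 22.8%) of the right part and 28.3% (23.1 to 34.0%) of the left part. Replicate 2 regions overlapped by replicate 1 were 55.7% (45.7 to 65.3%) and 68.8% (59.2 to 77.3%) in the same order. No member of the right part was above 42.1 in −log10 q, whereas the left part reached 144. Members under 50 bp were 27.3% of the right part and 22.2% of the left part. The split at the middle was made after the values had been seen.

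The broadest members were well supported, as strong regions were throughout the combined list. After the member of 2078 bp at 14032586 came those of 1524 bp at 16491259, 1243 bp at 14611973, 1088 bp at 15570379 and 1028 bp at 13695297. The last 2 had a −log10 q of 28.6 and 17.5 in the combined list, 14.6 and 8.15 in replicate 1, and 6.35 and 8.11 in replicate 2. Both replicate lists overlapped all 5. At 16491259 replicate 2 had 2 separate regions, of 577 bp with 6.23 and of 461 bp with 6.60. At 15570379 its 1 region was 478 bp wide. The widest region of the other chromosomes was 5981 bp.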

How the data were processed

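The samples were 2 anti-GFP ChIP libraries and 2 input libraries. Region lists were deposited by the authors. Per the file headers and source column, regions were called with PeakSeq and carry a q-value, deposited by the authors for each region and always below 0.01. Per the sample sheet deposited by the authors, both ChIP libraries were merged for the combined list and used singly for the replicate lists, with a combined input signal, and it gives read counts. It names WS190 and the headers name WS220. Comment lines record a move of coordinates after calling. No source used here gives the aligner or the PeakSeq settings.

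All regions were kept. Lists were compared by overlap of at least 1 bp with Python 3.11.15, pandas 2.3.3 and SciPy 1.17.1, after the functions were tested on simulated lists. Intervals are 95% exact Clopper-Pearson (shares), Poisson (densities), conditional binomial (density ratios) or order-statistic (medians) intervals. They cover counting error only, since they count called regions and neighbouring regions are linked. No p-value was computed, because the lists hold no value per library that could be tested over samples. Chromosome length was the last called position in any list. Reads behind single regions were not used here.

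Named are the 15 strongest and 5 widest members, the 5 widest gaps, the bins with most and fewest regions and the edges. The members, zones and these rules were chosen with earlier results of these data known. The width and strength classes were chosen after the values were seen.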

Additional observations from a re-analysis of the deposited data

How the results depend on the processing

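Of 70 alternatives to 10 values, 33 left the value within its 95% interval, or a number of regions within 1.5 times, and 37 moved it. Single replicate lists gave 215 to 451 regions, 58.1 to 122 per Mb, a density ratio to the other chromosomes of 2.58 to 3.31, 28.4 to 34.1% of chromosome IV regions, a median width of 134 to 245 bp, 11.2 to 22.2% under 50 bp, a median gap of 4694.5 to 8090.5 bp and a median −log10 q of 3.30 to 3.84. A narrower span of 14 to 17 Mb held 27.4% of chromosome IV regions and a wider one starting at 13 Mb held 36.4%. Without regions under 50 bp the density was 124 per Mb, the ratio 2.41, the chromosome IV share 28.2%, the share found in both replicates 28.4%, the median width 192 bp, the median gap 4106.5 bp and the median −log10 q 4.88. Merging within 1000 bp gave 128 per Mb, a ratio of 2.72, 27.9% found in both, 180 bp, 4590 bp and 4.45. At a q under 0.001 the density was 133 per Mb, the ratio 3.70, the chromosome IV share 36.6%, the width 170 bp, 21.2% under 50 bp, the gap 3841 bp, the −log10 q 4.66 and the share of replicate 2 regions overlapped by replicate 1 75.7%. With 50% reciprocal overlap 17.2% were found in both and 53.0% of replicate 2 regions were overlapped by replicate 1. With overlap of at least 1 bp read in the other direction, 29.7% of replicate 1 regions were overlapped by replicate 2. Fewer regions enter by construction when narrow or weak ones are left out or joined. Also by construction, a shorter or longer span holds a smaller or larger share of chromosome IV regions. A 50% reciprocal overlap can only lower the shares, and the reversed overlap is a share of 451 regions and not of 215. Otherwise the cause was not tested. Counting a region as found within 500 bp was added after the data were seen. Assembly lengths were not run, as no header gives them. No paired analysis was possible because each region carries a q-value of ChIP against a combined input, with none per input library. Reads per region are unknown here, so a member missing from a replicate list is not shown to be unbound there.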
